A study of Mus musculus with 10 samples.

Results

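The genes described here are 42 mouse genes of DNA replication and of the step from G1 into S phase. They were taken as the probes, other than control spots, that the scanner files name with 1 of the 42 symbols, which gave 76 probes among the 25160 genes named on the array. Of the 42 genes, 18 had 1 probe and 24 had more, and for all 76 probes the name reached through the RefSeq accession was the symbol in the file. The genes fall into 9 roles: the MCM2-7 helicase, origin licensing, helicase activation, polymerase with primase and RPA, the clamp and its loader, Okazaki fragment maturation, deoxynucleotide supply, cyclin E with E2F, and chromatin and uracil repair at the fork. Values could be fitted for 34 of the 42 in organoids, for 39 in colon tissue and for 33 in both.

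The data are 10 Agilent 2-colour arrays of mouse colon RNA, 6 of them with organoids and 4 with tissue. The study's title concerns how p53, encoded by Trp53, ends a regenerative state after colitis. KOWI organoids were Trp53 KO cultures that the labels call Wnt-independent, grown without surrogate Wnt (sWnt) and without CHIR, a GSK3 inhibitor that switches on Wnt signalling. KO and WT organoids were grown in full medium, in which sWnt was at 0.328 nM and CHIR at 3 µM. Full medium also held R-spondin at 25%, noggin at 100 ng/ml, EGF at 50 ng/ml and the TGFβ inhibitor A83-01 at 0.5 µM, and the labels name only sWnt and CHIR as left out of the other medium. Trp53 was deleted in culture by 800 nM 4OH-tamoxifen for 2 days in colon epithelium with Trp53 fl/fl and VillinCreERT2, a recombinase driven in intestinal epithelium, and KO cells were then selected with Nutlin-3A over several passages. The labels do not say whether WT cultures carried the recombinase or received 4OH-tamoxifen. Each organoid group had 2 replicates, and nothing states that they came from separate mice or cultures. The p-values in organoids thus describe sample spread that could be technical. Medium and derivation both set KOWI apart from KO and cannot be told apart. The labels give Nutlin-3A selection for KO cells, and in KO over WT organoids it cannot be told apart from the loss of Trp53.

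KO and WT tissue was colon from male mice of a cross of Axin2CreERT2, a recombinase active in cells that express the Wnt target Axin2, with Trp53 fl/fl. Tamoxifen was injected intraperitoneally to induce the knockout. Colitis was caused by 2% dextran sodium sulfate (DSS), an agent harmful to colon epithelium, given over 5 to 7 days, and the mice were killed 2 months after DSS. Age is not given, and neither are the alleles and tamoxifen treatment of the WT mice. There were 2 mouse pairs, each a KO mouse set against a WT mouse on 2 arrays with the dyes exchanged.

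Before S phase, the origin recognition complex, Cdc6 and Cdt1 load the MCM2-7 helicase onto DNA, and Cdc45, the GINS complex and Mcm10 then turn it on. Primase and DNA polymerase alpha start each new strand, the clamp loader RFC places the PCNA clamp that holds the copying polymerases, and Fen1 and Lig1 join the lagging strand pieces. Many of these genes are E2F targets: cyclin E with its kinase phosphorylates Rb proteins, which frees E2F factors, and p53 acts against this step through the inhibitor p21. In the colon such genes are read mainly in the dividing cells of the lower crypt. In whole tissue or whole organoids fewer dividing cells and less RNA per cell cannot be told apart.

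Promoters of 4 members are shown because E2F is the factor family most closely tied to these genes. The sequences are RefSeq's, on GRCm38.p6, a window of 300 bases around the start of the gene, written 5′ to 3′ on the gene's strand. The member with the most matches was taken in each of 4 roles. Other roles held matches too, and ties within and between roles went to the larger log2 difference, in size, in KOWI over WT. Pola1 and Uhrf1, with 1 match each, are shown by that rule, so their matches do not bear on their values. Capitals mark the 8-letter words searched, TTTCCCGC, TTTCGCGC, TTTGCCGC and TTTGGCGC and their reverse complements. Mcm6 lies at chr1:128359656-128359955 on the minus strand, Pola1 at chrX:93632106-93632405 on the minus strand, Rfc3 at chr5:151651159-151651458 on the minus strand and Uhrf1 at chr17:56304063-56304362 on the plus strand.
Mcm6: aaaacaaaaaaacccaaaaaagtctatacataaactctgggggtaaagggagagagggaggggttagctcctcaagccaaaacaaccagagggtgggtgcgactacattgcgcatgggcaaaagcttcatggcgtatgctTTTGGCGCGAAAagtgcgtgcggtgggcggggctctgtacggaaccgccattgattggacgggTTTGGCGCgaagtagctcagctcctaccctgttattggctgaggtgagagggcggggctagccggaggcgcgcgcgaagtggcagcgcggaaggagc
Pola1: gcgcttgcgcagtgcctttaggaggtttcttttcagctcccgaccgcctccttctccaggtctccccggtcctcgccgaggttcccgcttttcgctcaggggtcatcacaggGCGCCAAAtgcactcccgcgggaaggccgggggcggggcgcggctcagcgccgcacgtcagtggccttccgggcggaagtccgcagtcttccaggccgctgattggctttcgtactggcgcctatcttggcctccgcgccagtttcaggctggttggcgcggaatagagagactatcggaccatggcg
Rfc3: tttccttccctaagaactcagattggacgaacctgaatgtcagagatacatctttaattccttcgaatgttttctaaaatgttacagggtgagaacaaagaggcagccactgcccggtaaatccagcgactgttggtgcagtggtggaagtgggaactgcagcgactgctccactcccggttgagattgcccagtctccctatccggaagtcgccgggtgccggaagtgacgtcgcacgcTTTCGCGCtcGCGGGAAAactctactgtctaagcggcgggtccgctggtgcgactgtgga
Uhrf1: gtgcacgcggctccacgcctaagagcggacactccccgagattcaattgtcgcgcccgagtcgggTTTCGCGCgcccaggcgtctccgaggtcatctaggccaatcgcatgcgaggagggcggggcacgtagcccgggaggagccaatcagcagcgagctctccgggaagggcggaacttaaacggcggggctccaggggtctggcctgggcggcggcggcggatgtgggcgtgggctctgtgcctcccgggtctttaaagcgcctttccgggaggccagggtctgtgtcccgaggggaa

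In Mcm6 the first 2 matches overlap, starting 110 and 106 bases before the start site, and the third starts 47 bases before it. The single match starts 138 bases before the start in Pola1 and 185 bases before it in Uhrf1, while Rfc3 has 1 starting 10 bases before it and 1 at it. Promoters matched by symbol for 34 of the 42 members, and 13 of the 34 (38.2%) held at least 1 of these words, against 704 of 27025 symbols in the table (2.6%). The 13 were Mcm6 with 3 matches, Mcm3, Mcm5, Mcm7 and Rfc3 with 2 each, and Orc1, Cdc6, Cdt1, Gins3, Pola1, Lig1, E2f2 and Uhrf1 with 1 each. CCAAT, another element common in cell cycle promoters, was found on either strand in 64.7% of the member symbols and 41.1% of all symbols. These are letter matches in a fixed window, not measured binding. Mcm4, Gins1, Gins2, Gins4, Prim2, Pole, Rfc2 and Ccne2 were not matched to a promoter.

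Between 44.6% and 59.1% of probes were well above background per channel. Spots that the scanner software marked as outliers were left out, and these were 13.7% to 16.3% of spots on the 4 arrays with KOWI against 0.808% to 4.41% on the other 6. As a result Orc6, Cdt1, Gins3, Gins4, Prim1, Rfc1 and Ccne1 have no organoid value, Dut and Ccne1 have no tissue value, and 13 of the 34 organoid genes rest on 5 of the 6 arrays. Ccne2 was not well above background in any group. All 10 epithelial markers were above background in every channel. Of 8 fibroblast markers 4 (Col1a2, Col3a1, Dcn and Pdgfra) were above it in no organoid channel. Other lists were partly detected: in each organoid group 3 of 6 macrophage, 3 of 6 endothelial and 3 of 7 T cell markers were above background in every channel. The same held for 3 to 4 of 6 smooth muscle, 3 to 4 of 8 skeletal muscle and 0 to 1 of 7 B and plasma cell markers. The 1 Trp53 probe, whose position relative to the deleted part was not checked, had a log2 difference of -0.83 in KO over WT organoids (-1.07 and -0.59 in the 2 replicates), -0.79 in KOWI over WT organoids and -0.21 in KO over WT tissue (-0.46 and 0.04 in the 2 pairs), none past the test.

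In organoids Cy3 marked replicate 1 of each group and Cy5 replicate 2, so samples are best compared within a replicate number, where the dye is the same. WT replicate 2 stood apart from the other 5 organoid samples for these genes. Relative to each gene's mean over the 6 samples, the median of the 34 genes was 0.16 in KOWI replicate 1, 0.16 in KOWI replicate 2, 0.42 in KO replicate 1, -0.11 in KO replicate 2, 0.12 in WT replicate 1 and -0.71 in WT replicate 2, on the log2 scale. Only 2 of 34 genes, E2f2 and Ung, were above their own mean in WT replicate 2, against 32 in KO replicate 1. Values against WT are therefore also given without WT replicate 2 for most members described in detail.

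**Figure D1:**
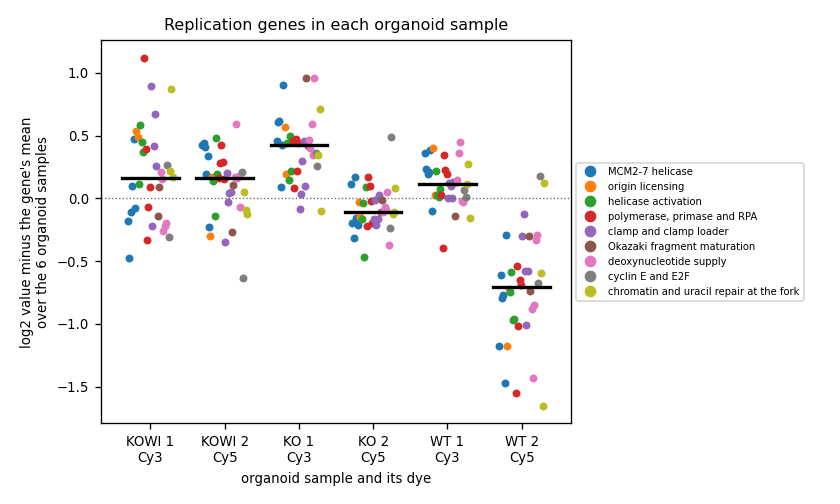
Each point is 1 of 34 replication genes in 1 organoid sample, coloured by role, drawn as its log2 value minus the gene's mean over the 6 samples (vertical axis); black bars are medians. The median of WT replicate 2 is -0.71, and the medians of the other 5 samples lie between -0.11 and 0.42.

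In KO organoids all 34 tested replication genes had a mean above WT, and none passed the test. The median log2 difference was 0.45, against 0.056 over all 11340 genes, of which 61.6% were above 0 and 38.4% below. By limma with Benjamini-Hochberg adjustment over all genes at 0.05, 0% of genes were called, 4 of 34 members and 607 of 11340 genes had an unadjusted p under 0.05, and the smallest adjusted p of a member was 0.739, for Prim2 and Rfc4. Both replicates were above 0 for 27 of 34 (79.4%, all genes 37.8%) and both below 0 for 0 of 34 (all genes 20.1%). The replicates differed in size: the median was 0.23 with 29 genes above 0 in replicate 1 and 0.58 with 32 above 0 in replicate 2, and replicate 2 exceeded replicate 1 for 30 of 34 genes (55.8% of all genes). On the 2 arrays that held both groups, KO replicate 2 over WT replicate 1 had a member median of -0.18 with 6 of 34 above 0, while WT replicate 2 over KO replicate 1 had -1.21 with 1 of 34 above 0. Without WT replicate 2 the KO over WT median was 0.12, and 19 of 29 genes were above 0.

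In KOWI organoids 32 of 34 had a mean above WT (52.4% of all genes) and 2 below (47.6%), and 1, Pola1, rose. The median was 0.42 against 0.021 over all genes, and 5.39% of all genes were called (3.35% higher and 2.04% lower), against 1 of 34 members. Both replicates were above 0 for 16 of 34 (47.1%, all genes 33.2%), both were below 0 for E2f2 alone (all genes 29.4%), and 15 were below 0 in replicate 1 and above 0 in replicate 2 (all genes 22.6%). The medians were 0.04 in replicate 1, with 18 genes above 0, and 0.89 in replicate 2, with 31 above 0. Without WT replicate 2 the median was 0.20, with 23 of 29 above 0.

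KOWI over KO gave no common direction: 19 of 34 genes were above 0 (44.7% of all genes) and 15 below (55.3%), with a median of 0.013 against -0.032 over all genes. Replicate 1 had a median of -0.19 and replicate 2 a median of 0.21, and 17 genes were below 0 in replicate 1 and above 0 in replicate 2 (26.2% of all genes). By limma 0.432% of all genes were called and no member; 1 member, E2f2, and 1586 genes had an unadjusted p under 0.05. The KO over WT and KOWI over WT values share the WT samples, and KOWI over WT and KOWI over KO share the KOWI samples.

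**Figure D2:**
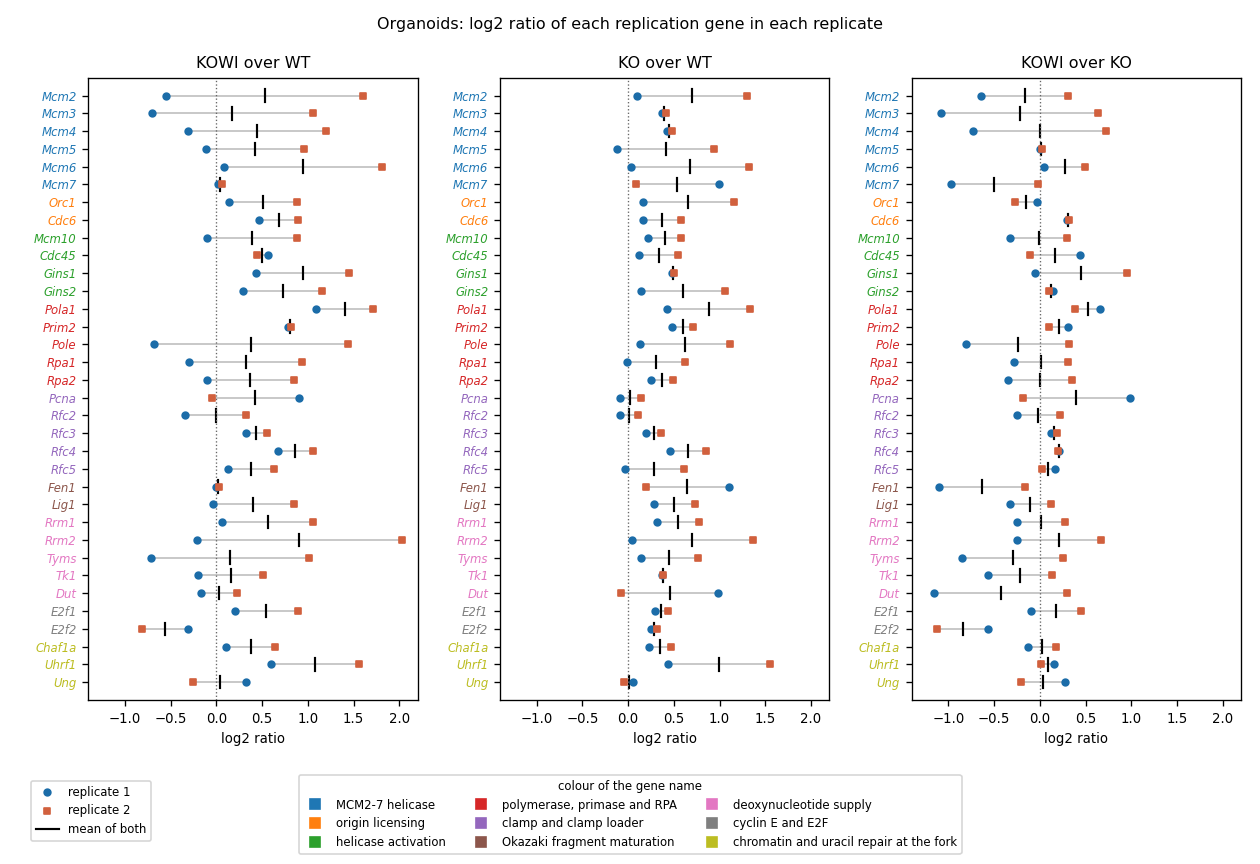
Log2 ratio (horizontal axis) of each of 34 replication genes (rows, names coloured by role) in KOWI over WT, KO over WT and KOWI over KO organoids; circles are replicate 1, squares replicate 2, bars their mean. Replicate 2 lies right of replicate 1 for 30 of 34 genes in both comparisons with WT, and all 34 means lie above 0 in KO over WT.

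Among the 6 subunits of the MCM2-7 helicase, which unwinds DNA at the fork, all means were above WT in both KO and KOWI organoids and none passed the test. Mcm6 had log2 intensities of 15.77 and 15.64 in KOWI replicates 1 and 2, 15.72 and 15.14 in KO and 15.69 and 13.83 in WT. Its replicate 1 samples lay close together and WT replicate 2 was the low one, so its log2 difference was 0.086 and 1.81 in KOWI over WT (mean 0.95, SE 0.41, limma adjusted p = 0.248) and 0.037 and 1.32 in KO over WT (mean 0.68). Without WT replicate 2 Mcm6 was at 0.20 in KOWI over WT and -0.07 in KO over WT. Mcm7 had 14.35 and 14.20 in KOWI, 15.33 and 14.21 in KO and 14.33 and 14.13 in WT organoids, so KO replicate 1 alone was high. That gave 1.00 and 0.08 in KO over WT and -0.97 and -0.02 in KOWI over KO. Mcm2, Mcm3, Mcm4 and Mcm5 had means between 0.40 and 0.69 in KO over WT and between 0.17 and 0.53 in KOWI over WT. All 4 were below 0 in replicate 1 and above 0 in replicate 2 of KOWI over WT, most widely Mcm2 (-0.55 and 1.60) and Mcm3 (-0.70 and 1.05).

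Of the origin licensing genes, Cdc6, which loads the helicase, had log2 intensities of 9.66 and 9.33 in KOWI, 9.36 and 9.02 in KO and 9.19 and 8.44 in WT organoids. KOWI was above KO and KO above WT in each replicate, and the KOWI and WT samples did not overlap. The log2 difference was 0.68 in KOWI over WT (0.47 and 0.89, SE 0.19, limma adjusted p = 0.109), 0.37 in KO over WT and 0.31 in KOWI over KO (0.30 and 0.32). A second Cdc6 probe gave 1.10 in KOWI over WT, and with both probes averaged Cdc6 passed (0.89, adjusted p = 0.0488). Cdc6 was at 0.50 in KOWI over WT and 0.14 in KO over WT without WT replicate 2. Orc1, the largest subunit of the origin recognition complex, had 10.05 and 9.21 in KOWI, 10.08 and 9.49 in KO and 9.92 and 8.33 in WT organoids. The KO and KOWI samples overlapped, and the difference was 0.66 in KO over WT (0.16 and 1.15) and 0.51 in KOWI over WT (0.13 and 0.88), neither past the test. When WT replicate 2 was left out, Orc1 was at 0.20 in KO over WT and 0.10 in KOWI over WT. Orc1 probes disagree: a dimmer one gave -0.04 in both. With the outlier spots kept, Orc6, another subunit of that complex, was at 0.41 in KO over WT and 0.25 in KOWI over WT. Cdt1, the partner of Cdc6 in loading, was then at 0.10 and 0.57. On the 2 arrays that held KO and WT, with outlier spots left out, KO over WT was 0.58 for Orc6 and 0.55 for Cdt1.

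The genes that activate the helicase included Gins1, a GINS subunit, with log2 intensities of 10.59 and 10.62 in KOWI, 10.63 and 9.67 in KO and 10.15 and 9.17 in WT organoids. Both KOWI samples were above both WT samples, and KO lay above WT by nearly the same amount in each replicate. Gins1 was at 0.94 in KOWI over WT (0.44 and 1.45, SE 0.29, limma adjusted p = 0.138) and 0.49 in KO over WT (0.49 and 0.50). Gins2, a second GINS subunit, followed with 0.72 (0.29 and 1.16) and 0.60 (0.14 and 1.05). Mcm10, which helps start unwinding, had 10.90 and 10.92 in KOWI, 11.22 and 10.62 in KO and 11.00 and 10.04 in WT organoids. Its KOWI and WT samples overlapped, with 0.39 in KOWI over WT (-0.10 and 0.88) and 0.40 in KO over WT (0.22 and 0.58). Without WT replicate 2, KOWI over WT was 0.81 for Gins1, 0.28 for Gins2 and 0.13 for Mcm10, and KO over WT was 0.12, 0.15 and -0.0098. Cdc45, the helicase cofactor, was at 0.50 in KOWI over WT and was the only member of this role larger in replicate 1 (0.56) than in replicate 2 (0.45). Its WT samples lay near background, at log2 intensities of 7.11 to 7.72, and it passed the filter only through KO and KOWI, so its differences from WT are uncertain. With outlier spots kept, Gins3 was at 0.12 and 0.14, and Gins4 at 0.045 and 0.32, in KO over WT and KOWI over WT. On the 2 arrays that held KO and WT, with outlier spots left out, KO over WT was 0.20 for Gins3 and 0.32 for Gins4.

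Pola1, the catalytic subunit of DNA polymerase alpha, was the 1 member past the test in organoids. Its log2 intensities were 12.02 and 11.06 in KOWI, 11.35 and 10.67 in KO and 10.92 and 9.34 in WT organoids. KOWI was highest and WT lowest in each replicate, and both KOWI samples lay above both WT samples. Pola1 rose by 1.40 in KOWI over WT (1.09 and 1.72, SE 0.25, 2.65-fold, limma adjusted p = 0.0437). KO over WT was 0.88 (0.43 and 1.33, adjusted p = 0.756) and KOWI over KO 0.52 (0.66 and 0.39, adjusted p = 0.467). The call was close to the threshold and was lost under 11 of 16 tested alternatives, where the log2 difference stayed between 1.06 and 1.82. Pola1 was at 1.06 in KOWI over WT (adjusted p = 0.255) and 0.47 in KO over WT without WT replicate 2. Pola1 was measured at chrX:90550189-90550248 (mm9, minus strand), and its dimmer second probe at chrX:90550861-90550920 gave 0.77 in KOWI over WT (0.51 and 1.04) and 0.62 in KO over WT.

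Prim2, the large primase subunit, which works in 1 complex with Pola1, had nearly equal replicates, 0.79 and 0.82 in KOWI over WT (mean 0.80, SE 0.17, adjusted p = 0.0590) and 0.48 and 0.71 in KO over WT. Its log2 intensities were 11.11 and 11.00 in KOWI, 10.80 and 10.89 in KO and 10.33 and 10.18 in WT organoids, with no overlap between KO and WT or KOWI and WT. Prim2 did not rest on WT replicate 2: without it the values were 0.75 in KOWI over WT and 0.51 in KO over WT. Its partner Prim1, the catalytic primase subunit, had no fitted value unless outlier spots were kept. Prim1 was then at 1.21 in KOWI over WT and 0.67 in KO over WT, limma adjusted p = 0.185 and 1.00. On the 2 arrays that held KO and WT, with outlier spots left out, Prim1 was at 0.85 in KO over WT. Rpa1, which coats single-stranded DNA, had 13.75 and 14.10 in KOWI, 14.04 and 13.79 in KO and 14.04 and 13.17 in WT organoids. These overlapped, with 0.32 in KOWI over WT (-0.29 and 0.93) and 0.31 in KO over WT. Pole, the leading strand polymerase, split most within this role, at -0.68 and 1.44 in KOWI over WT, and Rpa2, the second RPA subunit, was at -0.10 and 0.84.

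In the clamp and clamp loader, Rfc4 stood above the other measured members. Rfc4, a loader subunit, had log2 intensities of 10.33 and 9.70 in KOWI, 10.12 and 9.50 in KO and 9.66 and 8.65 in WT organoids. Within each replicate the order was KOWI, KO, WT, and the KOWI and WT samples did not overlap. It was at 0.86 in KOWI over WT (0.67 and 1.05, SE 0.19, limma adjusted p = 0.0617), 0.66 in KO over WT (0.46 and 0.85) and 0.21 in KOWI over KO (0.21 and 0.20). A second measured probe gave 1.17 in KOWI over WT, and the mean of both passed (1.02, adjusted p = 0.0450), while the brightest Rfc4 probe could be used only with outlier spots kept and gave 0.35. Rfc2, another loader subunit, had 13.43 and 13.86 in KOWI, 13.68 and 13.64 in KO and 13.77 and 13.53 in WT organoids, a difference of -0.0048 in KOWI over WT (-0.34 and 0.33) and 0.012 in KO over WT. Rfc3 was at 0.44 in KOWI over WT (0.32 and 0.55) and 0.28 in KO over WT (0.20 and 0.36). Rfc5 was at 0.38 in KOWI over WT (0.13 and 0.63) and 0.29 in KO over WT (-0.038 and 0.61). Leaving out WT replicate 2, KOWI over WT was 0.70 for Rfc4, 0.34 for Rfc3 and 0.092 for Rfc5, and KO over WT was 0.43, 0.18 and -0.0024. Rfc1, the large subunit, was at 0.57 in KOWI over WT and 0.31 in KO over WT with outlier spots kept. On the 2 arrays that held KO and WT, with outlier spots left out, Rfc1 was at 0.38 in KO over WT.

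Pcna is the clamp itself. Its log2 intensities were 15.45 and 14.20 in KOWI, 14.47 and 14.39 in KO and 14.55 and 14.25 in WT organoids. KOWI replicate 1 alone was high, at 0.90 over WT replicate 1, and KOWI replicate 2 was at -0.045 over WT replicate 2. KO over WT was 0.027 (-0.085 and 0.14, SE 0.31). Pcna is also known as a p53 target gene in human cells.

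For Okazaki fragment maturation, Fen1, the flap nuclease, had log2 intensities of 13.90 and 13.77 in KOWI, 15.00 and 13.94 in KO and 13.90 and 13.74 in WT organoids. As with Mcm7, KO replicate 1 alone was high, giving 1.10 and 0.20 in KO over WT and -1.10 and -0.16 in KOWI over KO. Dut, which removes dUTP, had the same shape: 14.01 and 14.14 in KOWI, 15.17 and 13.84 in KO and 14.18 and 13.92 in WT organoids. For these 3 genes the spot on the array of KOWI replicate 2 against KO replicate 1 was left out as an outlier. With outlier spots kept, KO over WT was 0.38 for Mcm7, 0.43 for Fen1 and 0.30 for Dut, and KOWI over KO was -0.16, -0.17 and -0.078. With its probes averaged, Dut was at -0.049 in KO over WT. Lig1, the ligase that seals the fragments, had 12.61 and 12.62 in KOWI, 12.94 and 12.50 in KO and 12.65 and 11.78 in WT organoids, with 0.51 in KO over WT (0.29 and 0.73) and 0.40 in KOWI over WT (-0.04 and 0.85). Lig1 was at 0.18 in KO over WT and 0.073 in KOWI over WT without WT replicate 2.

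Of all members, Rrm2 in deoxynucleotide supply had the widest gap between replicates in KOWI over WT. Rrm2, the small subunit of ribonucleotide reductase, had log2 intensities of 14.94 and 15.39 in KOWI, 15.19 and 14.72 in KO and 15.15 and 13.36 in WT organoids. WT replicate 2 was the low sample, and the difference was -0.21 and 2.03 in KOWI over WT (mean 0.91, SE 0.50, limma adjusted p = 0.363) and 0.04 and 1.36 in KO over WT (mean 0.70). Without WT replicate 2, Rrm2 was at 0.018 in KOWI over WT and -0.19 in KO over WT. Rrm1, the large subunit, was at 0.56 in KOWI over WT (0.06 and 1.06) and 0.55 in KO over WT (0.32 and 0.78), and at 0.26 and 0.13 without WT replicate 2. Tyms, which makes dTMP, and Tk1, the salvage thymidine kinase, were at 0.45 and 0.38 in KO over WT. In KOWI over WT both had opposite signs in the replicates, -0.71 and 1.01 for Tyms and -0.20 and 0.52 for Tk1. All 5 genes of this role were below 0 in replicate 1 and above 0 in replicate 2 of KOWI over KO.

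The 2 E2F genes went opposite ways in KOWI organoids, neither past the test. E2f2 had log2 intensities of 12.36 and 12.03 in KOWI, 12.92 and 13.15 in KO and 12.67 and 12.84 in WT organoids. Both KOWI samples lay below all 4 others and both KO samples above all 4 others. The difference was -0.56 in KOWI over WT (-0.31 and -0.81, SE 0.21, limma adjusted p = 0.186), -0.84 in KOWI over KO (-0.57 and -1.12, adjusted p = 0.155) and 0.28 in KO over WT (0.25 and 0.32). E2f2 was measured at chr4:135750562-135750621 (mm9, plus strand), and its second probe at chr4:135750358-135750417 gave -0.27 in KOWI over WT and 0.22 in KO over WT. E2f1 had 10.46 and 10.40 in KOWI, 10.55 and 9.95 in KO and 10.26 and 9.51 in WT organoids, with KOWI above WT in both replicates (0.20 and 0.89, mean 0.55, adjusted p = 0.223). Leaving out WT replicate 2 gave 0.41 for E2f1 and -0.45 for E2f2 in KOWI over WT. Ccne1, 1 of the 2 E-type cyclins, was at 0.15 in KO over WT and 0.14 in KOWI over WT with outlier spots kept. On the 2 arrays that held KO and WT, with outlier spots left out, Ccne1 was at 0.16 in KO over WT.

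Uhrf1, which guides DNA methylation onto new strands, was the highest member in KO over WT and second to Pola1 in KOWI over WT. Its log2 intensities were 12.90 and 11.94 in KOWI, 12.75 and 11.93 in KO and 12.31 and 10.38 in WT organoids. KO and KOWI lay together above WT in each replicate. Uhrf1 was at 1.08 in KOWI over WT (0.60 and 1.56, SE 0.30, 2.11-fold, limma adjusted p = 0.111) and 0.99 in KO over WT (0.44 and 1.55, 1.99-fold, adjusted p = 0.800), and at 0.58 and 0.45 without WT replicate 2. Chaf1a, a histone chaperone subunit that packs new DNA, was at 0.38 in KOWI over WT (0.10 and 0.65) and 0.35 in KO over WT (0.23 and 0.47), and at 0.23 and 0.11 without WT replicate 2. Ung, which cuts uracil out of DNA, had 14.61 and 14.31 in KOWI, 14.34 and 14.52 in KO and 14.28 and 14.56 in WT organoids. Its replicates had opposite signs in all 3 comparisons, and its mean differed by at most 0.039.

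Taking each sample as a point, 8 of 34 members had both KOWI samples above both WT samples (24.1% of all genes) and 1 both below (23.7%). For KO against WT 5 were above (18.5% of all genes) and 0 below (12.2%), and for KOWI against KO 1 was above (16.5%) and 2 below (21.5%). Across the 34 members the Pearson correlation of log2 difference with mean log2 intensity was -0.15 in KO over WT and -0.32 in KOWI over WT. Members with an E2F-type word in the promoter had a median of 0.44 in KOWI over WT (n = 11) and 0.51 in KO over WT, and those without one 0.38 (n = 17) in both.

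**Figure D3:**
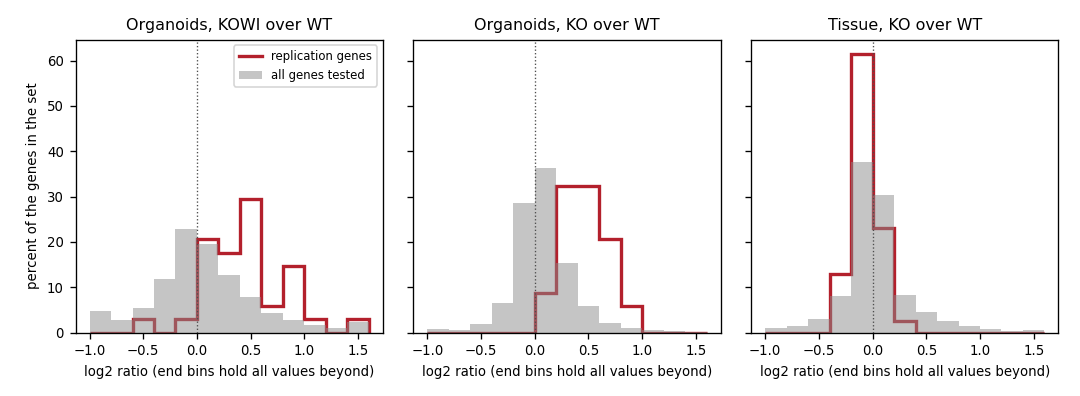
Percent of genes (vertical axis) by log2 ratio (horizontal axis) for the replication genes (red outline) and all genes tested (grey) in KOWI over WT organoids, KO over WT organoids and KO over WT tissue. The medians of the replication genes are 0.42, 0.45 and -0.044, and those of all genes 0.021, 0.056 and -0.0039.

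Other genes of replication and cell division were described from fixed lists beside the 42. Of 29 other replisome and origin genes tested, 27 were above 0 in KOWI over WT organoids with a median of 0.43, and 26 were above 0 in KO over WT with a median of 0.39. In KOWI over WT 3 rose: Mcm8, a helicase of recombination repair, by 1.20 (0.90 and 1.50, limma adjusted p = 0.0392), Dscc1, a subunit of an alternative clamp loader, by 1.07 (adjusted p = 0.0336), and Atad5, which unloads PCNA, by 1.02 (adjusted p = 0.0403). Timeless, a fork protection factor, was the highest in KO over WT at 0.91 (0.33 and 1.49) and Gmnn, the inhibitor of Cdt1, the lowest in KOWI over WT at -0.08. Of 12 other nucleotide synthesis genes, 12 were above 0 in KO over WT (median 0.30) and 10 in KOWI over WT (median 0.22), with Ctps highest in both (0.77 and 1.29) and none called. Of 8 S phase chromatin genes 7 were above 0 in each, and Hells, a chromatin remodeller that acts in DNA methylation, rose by 1.61 in KOWI over WT (1.29 and 1.94, adjusted p = 0.0272) and was at 1.06 in KO over WT. Of 17 mitosis genes 16 had a mean above 0 with a median of 0.58 in each of KOWI over WT and KO over WT, with no call. In replicate 1, 10 of 17 were above 0 in KOWI over WT and 14 in KO over WT, and in replicate 2, against WT replicate 2, 16 and 17. The mean was highest for Nusap1, a spindle protein, at 1.40 in KOWI over WT and 1.05 in KO over WT.

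Among 21 other G1/S control genes the median was 0.16 in KOWI over WT and 0.13 in KO over WT. Rb1, the retinoblastoma protein that binds and holds E2F, fell by 2.03 in KOWI over WT (-1.84 and -2.22, SE 0.20, adjusted p = 0.0178). It was at -0.42 in KO over WT (-0.50 and -0.34), and its second probe was also below 0 in all 4 replicate ratios. Skp2, a ubiquitin ligase subunit, was the highest in KOWI over WT at 0.82. Of 7 CDK inhibitors, Cdkn2a, which encodes p16 and p19Arf, rose by 1.31 in KOWI over WT (1.20 and 1.43, adjusted p = 0.0238) and was at 1.70 in KO over WT (1.58 and 1.81, adjusted p = 0.182). Cdkn1a, which encodes p21, was at -0.33 in KOWI over WT (-0.06 and -0.61) and -0.27 in KO over WT. Of 19 p53 target genes 15 were below 0 in KOWI over WT with a median of -0.42, and 17 were below 0 in KO over WT with a median of -0.32. Zmat3 fell by 1.02 (adjusted p = 0.0332) and Pmaip1, which encodes Noxa, rose by 1.86 (adjusted p = 0.0279) in KOWI over WT.

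Markers of colon cell types moved in the same organoid samples. Of 9 colonocyte markers 7 fell in KOWI over WT (Aqp8, Car4, Guca2a, Krt20, Muc3, Slc9a3 and Tmigd1), with a list median of -2.01, and all 9 were below 0 in KO over WT with a median of -0.70 and no call. Their mean log2 intensity was 11.67 and 11.66 in KOWI, 13.32 and 13.32 in KO and 13.95 and 14.21 in WT organoids. Of 6 stem cell markers Lgr5 rose by 2.82 and Sox9 by 1.79 in KOWI over WT, and all 6 were above 0 in KO over WT with a median of 0.54. The mean over these 6 was 10.53 and 10.38 in KOWI, 10.33 and 9.45 in KO and 9.19 and 8.83 in WT organoids. Of 8 goblet cell markers Fcgbp, Rep15 and Spdef fell in KOWI over WT, and in KOWI over KO, where no member was called, Aqp8, Muc3, Slc9a3, Fcgbp and Rep15 fell. Of the other marker lists, Vil1 and Krt20 of epithelium fell, and Lck and Cd68, used as T cell and macrophage markers, rose in KOWI over WT. The part of these shifts in the values of the replication genes was not tested.

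**Figure D4:**
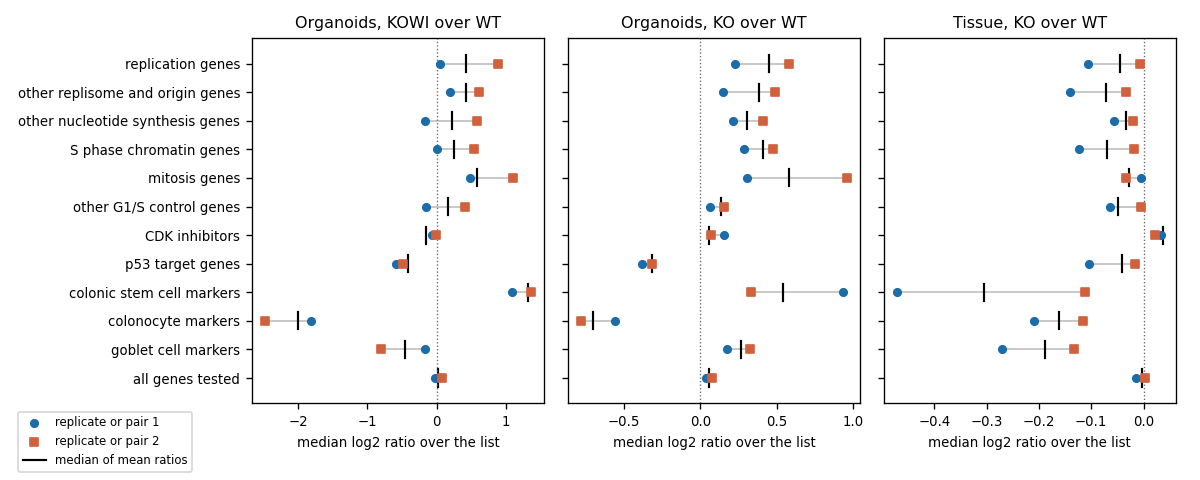
Median log2 ratio (horizontal axis, its range differs between panels) over each gene list (rows) in KOWI over WT organoids, KO over WT organoids and KO over WT tissue; circles are replicate or pair 1, squares replicate or pair 2, bars the median of the mean ratios. The replication genes have medians of 0.42, 0.45 and -0.044 and the colonocyte markers -2.01, -0.70 and -0.16.

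In KO tissue the replication genes lay close to WT, and none passed the test. Of 39 tested, 10 had a mean above 0 (48.8% of all genes) and 29 below (51.2%), with a median of -0.044 against -0.0039 over all 13152 genes. The split varied with the mouse left out, in fits that used the values of single mice without the pairing. Without WT mouse 1 it was 19 above and 20 below (median -0.022), and without KO mouse 1 it was 17 and 22 (median -0.031). Without WT mouse 2 it was 12 and 27 (median -0.10), and without KO mouse 2 it was 10 and 29 (median -0.087). By limma 0% of all genes were called, 2 of 39 members and 1930 of 13152 genes had an unadjusted p under 0.05, and the smallest adjusted p of a member was 0.328. Both pairs were below 0 for 18 of 39 genes (all genes 34.8%) and both above 0 for 5 (all genes 32.2%). Pair 1 had a median of -0.11 with 8 genes above 0, and pair 2 a median of -0.0067 with 18 above 0. The median SE of a member was 0.076 in tissue against 0.27 in organoids.

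E2f2 was the lowest member in tissue, with log2 intensities of 13.28 and 13.55 in KO mice of pairs 1 and 2 against 13.67 and 13.77 in WT mice. Both KO mice lay below both WT mice, a difference of -0.30 (-0.39 and -0.22, SE 0.08, limma adjusted p = 0.328). Cdt1 had 11.80 and 12.02 in KO against 12.43 and 11.98 in WT mice, a difference in pair 1 alone (-0.63 and 0.04). Cdc6 had 8.24 and 7.95 in KO against 8.63 and 8.06 in WT mice, with the groups overlapping and both pairs below 0 (-0.39 and -0.11). Rrm2 was the highest, with 14.06 and 13.60 in KO against 13.69 and 13.49 in WT mice, and the groups overlapped (0.37 and 0.12, mean 0.24, adjusted p = 0.413). Gins3 was at 0.12 (12.14 and 12.03 in KO against 11.92 and 12.01 in WT mice) and Gins4 at 0.10 (13.63 and 13.96 against 13.51 and 13.89). Gins4 changed sign with the processing, to -0.08 with outlier spots kept. Mcm10 was the other member with an unadjusted p under 0.05, at -0.23 (-0.27 and -0.19, adjusted p = 0.338).

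By role, the 4 origin licensing genes were all below 0 in tissue, with a median of -0.21, as were Fen1 (-0.03) and Lig1 (-0.19), and E2f1 (-0.13) and E2f2. Of the 6 MCM subunits 4 were below 0, from Mcm2 at -0.15 to Mcm4 at 0.03. Pcna was at -0.03 and the 5 loader subunits between -0.17 for Rfc3 and 0.02 for Rfc4. Both KO mice were below both WT mice for 5 of 39 members (15.1% of all genes) and above for 2 (14.9%). The correlation of log2 difference with mean log2 intensity across the 39 members was 0.41. The 29 members under a log2 intensity of 14 had a median of -0.095 with 5 above 0, against 0.00065 over all such genes. The 10 members over it had a median of 0.0038 with 5 above 0, against -0.0070. Ratios of bright genes spread less, with a median absolute deviation over all genes of 0.063 over 14 and 0.22 under it. Orc1, Cdc6, Mcm3, Gins2 and Rfc4 were read from other probes in tissue than in organoids.

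**Figure D5:**
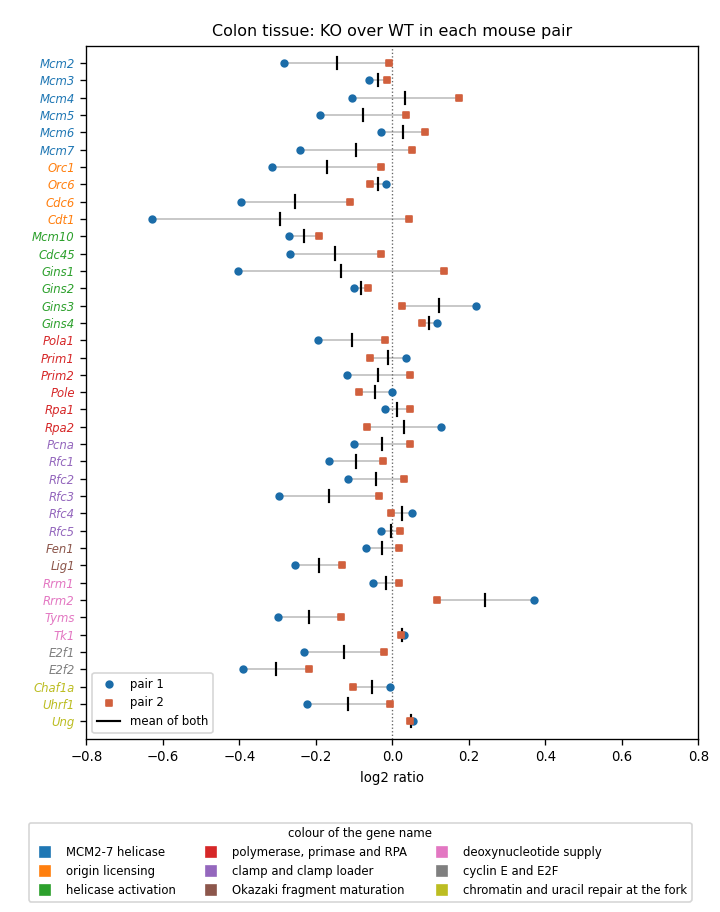
Log2 ratio of KO over WT tissue (horizontal axis) for 39 replication genes (rows, names coloured by role); circles are mouse pair 1, squares pair 2, bars their mean. The means run from -0.30 for E2f2 to 0.24 for Rrm2, and 29 of 39 lie below 0.

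Related lists lay near 0 in tissue as well: 25 of 32 other replisome genes were below 0 with a median of -0.07, and 13 of 20 mitosis genes with a median of -0.03. Cell type markers moved in the same mice, none of them called. All 10 epithelial markers (median -0.10), all 8 goblet cell markers (median -0.19) and all 6 stem cell markers (median -0.30) were below 0. All 8 skeletal muscle markers (median 0.41), all 7 fibroblast markers (median 0.13), all 6 smooth muscle markers (median 0.15) and all 6 macrophage markers (median 0.25) were above 0. These are means, and the pairs had opposite signs for Elf3, Axin2, Lgr5, Col1a1, Col3a1, Pdgfra, Myh11, C1qa and Lyz2. The T cell and endothelial markers tested had means above 0, and the B and plasma cell markers tested had means below 0. Tmigd1, at 0.40, was the only colonocyte marker above 0. The mean log2 intensity over the epithelial markers was 16.97 and 16.88 in KO against 17.08 and 16.96 in WT mice, and over the skeletal muscle markers 15.01 and 15.53 in KO against 14.39 and 15.03 in WT mice. The part of cell mixture in the values of the replication genes was not tested.

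KO effects in tissue and organoids were set against each other for the 33 genes with both. The tissue minus organoid difference in log2 KO over WT was below 0 for 32 of 33, with a median of -0.56 against -0.081 over 9870 genes, of which 36.0% were above 0. By limma no gene was called (0%), 18 of 33 members and 1215 of 9870 genes had an unadjusted p under 0.05, and the smallest adjusted p of a member was 0.286, for E2f2. Both tissue pairs were below 0 and both organoid replicates above 0 for 14 of 33 members (42.4%), while 17.5% of all genes had opposite signs of either kind. Orc1 had the widest gap, -1.21 (SE 0.40), with -0.85 and -0.25 in the tissue pairs and 0.16 and 1.15 in the organoid replicates on the probe shared by both, followed by Uhrf1 at -1.11 and Pola1 at -0.99. The place of Orc1 rested on that probe: its brightest tissue probe gave -0.32 and -0.029 in the pairs, and with probes averaged Orc1 was at -0.62 and Uhrf1 had the widest gap. Ung alone was above 0, at 0.04. Without organoid replicate 2 the median difference was -0.36, with 27 of 33 below 0. The 2 experiments differ in the recombinase, the cells sampled, the DSS injury and the slide. They also differ in deletion of Trp53 in culture against mice, and in the Nutlin-3A selection over several passages. These differences cannot be told apart.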

How the data were processed

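Per the file headers, spots were quantified in Agilent Feature Extraction 12.2.0.7 (protocol GE2_1200_Dec17, array design 074809, probe positions on mm9) and the authors deposited the mean intensity of each spot with the median intensity of its local background. The deposited log10 ratio of each spot is Cy5 over Cy3, per the file headers. A table of log2 ratios by probe was deposited as well, and limma is the tool in the submitters' processing notes. Its slope on the scanner ratios was 0.967 to 0.999 and its column medians -0.0006 to 0.0171, so scale and direction are settled and the centring is not stated.

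With limma 3.58.1 in R 4.3.3, intensities were corrected by normexp (offset 50) and loess within arrays, with controls (3671 of 62976 spots) and outlier spots at weight 0. Outlier spots were left out, and spots averaged per probe. Of 56605 probes, 35405 were named by accession, 9124 by symbol and 25 by synonym, and 12051 had no name. Each gene was read from its brightest completely fitted probe, if all channels of 1 group or more were well above background. This kept 13152 of 14061 tissue genes and 11340 of 14747 organoid genes. In tissue the 2 pair ratios, each averaged over the dye swap, were tested against 0. In organoids 6 sample values, solved from the arrays by least squares, were fitted by group with the replicate number as a block. The block also holds the dye: replicate 1 is Cy3 and replicate 2 Cy5 throughout, so the number marks a shared dye, not a shared mouse. P-values were adjusted by Benjamini-Hochberg over all genes, with a threshold of 0.05. Sample values are normalised log2 intensities, compared only within a probe. The fits were also run on simulated data in which genes varied independently, which does not test shifts shared by many genes. Each experiment was on 1 slide, so slide could not be a block. Precision is limited by how few arrays there are.

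The 42 genes, the lists and the markers were chosen with earlier results of these data known. Sample values are given for each called member, for the highest and lowest member of each role in KOWI over WT, and for the 3 highest and 3 lowest in tissue and in KO over WT organoids, plus Prim2, which was chosen after its values were seen. In 1 tissue label the Cy3 source name gives replicate 1 while the title and animal label give replicate 2, and the title was used. Alternatives were the scanner's processed signals, median centring, outlier spots kept, no filter on dim probes, probes under a log2 intensity of 14, the mean over probes, the authors' table, file names for genes, arrays as independent, no block, and leaving out each sample.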

Additional observations from a re-analysis of the deposited data

Results flagged for a closer look

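In 14 members both tissue pairs were below 0 and both organoid replicates above 0 in KO over WT, which set them apart for a closer look. The test of the difference itself (limma, Benjamini-Hochberg over 9870 genes) passed for none of them, with a smallest adjusted p of 0.286. The tissue minus organoid difference in log2 was -1.21 for Orc1 on 1 of its probes (its brightest tissue probe was at -0.32 and -0.029 in the pairs), -1.11 for Uhrf1, -0.99 for Pola1, -0.84 for Mcm2, -0.70 for Cdc6 and -0.70 for Lig1. It was -0.67 for Pole, -0.67 for Tyms, -0.63 for Mcm10, -0.59 for E2f2, -0.49 for E2f1, -0.49 for Cdc45, -0.45 for Rfc3 and -0.41 for Chaf1a. For Cdc6 the difference used another probe than the tissue values given above, at -0.55 and -0.12 in the tissue pairs. That the KO over WT ratio is lower in tissue for all 14 follows from the rule that chose them. The tissue values of Chaf1a, Pole, Uhrf1 and Mcm2 include a pair within 0.01 of 0. Cdc45 was well above background in only 2 of 4 WT organoid channels.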

How the results depend on the processing

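Directions of the member medians held under every alternative run for KO over WT and KOWI over WT organoids, tissue and the tissue minus organoid difference, but not for KOWI over KO; sizes and calls did not hold. In KOWI over WT, 1 member was called, beside 5.39% of all genes. With scanner processed signals, median centring, outlier spots kept, no filter or the authors' table, 0 members were called, beside 0.0271% to 2% of all genes. The mean over probes called 3 members (Cdc6, Pola1 and Rfc4), beside 5.41% of all genes. Arrays as independent called 15 of 34 members, beside 37.1% of all genes. Without the replicate block, 0 members were called in KOWI over WT, beside 3.86% of all genes. The replicate number is the dye, and the blocked fit is the one reported. Arrays as independent called 5 of 34 members in KO over WT (6.26% of all genes) and 2 of 34 in KOWI over KO (22.4% of all genes). Pola1 lost its KOWI over WT call under 11 alternatives (adjusted p 0.0822 to 0.255). The member median was -0.12 in tissue with median centring. Leaving out 1 sample gave medians of 0.12 (WT replicate 2) to 0.63 in KO over WT, of 0.20 (WT replicate 2) to 0.83 (KOWI replicate 1) in KOWI over WT, with 0.27 without KOWI replicate 2 and 0.80 without WT replicate 1, and of -0.27 (KOWI replicate 2) to 0.32 (KOWI replicate 1) in KOWI over KO. Leaving out an organoid replicate number gave -0.70 to -0.36 for the tissue minus organoid difference. On the 2 arrays holding both groups, an alternative chosen after seeing the data, the median was 0.53 in KO over WT, 0.39 in KOWI over WT and 0.13 in KOWI over KO. Signs turned for values near 0: in tissue Gins4 (-0.078 with outlier spots kept, -0.088 in the authors' table, -0.092 to 0.28 leaving out 1 mouse) and Cdc6 (-0.54 to 0.035 leaving out 1 mouse). In KO over WT, processed signals gave Pcna -0.026, Rfc2 -0.029 and Ung -0.051, and the authors' table gave -0.0041, -0.028 and -0.025; leaving out 1 sample gave Pcna -0.30 to 0.40, Ung -0.15 to 0.18, Rrm2 -0.19 to 0.70 and Rfc2 -0.21 to 0.012. In KOWI over WT, Fen1 was -0.14 with processed signals and -0.049 with median centring, and -0.23 to 0.015 leaving out 1 sample; Rfc2 was 0.27 with median centring, 0.025 with arrays as independent and -0.22 to 0.28 leaving out 1 sample. In KOWI over KO, leaving out 1 sample gave Gins1 -0.17 to 0.83 and Pcna -0.10 to 0.95. In the difference, Ung was -0.047 with median centring, and leaving out a tissue or organoid replicate number gave Ung -0.0048 to 0.090, Pcna -0.16 to 0.058 and Rfc2 -0.16 to 0.045. The causes were not tested. Of all genes, KOWI over WT calls were 611, against 144 (processed signals), 227 (median centring), 59 (outlier spots kept), 262 (no filter), 4 (authors' table), 4211 (arrays independent) and 438 (no block); leaving out 1 sample gave 19 (KOWI replicate 2), 56 (WT replicate 1), 72 (KO replicate 2), 105 (WT replicate 2), 444 (KOWI replicate 1) and 766 (KO replicate 1). KOWI over KO calls were 49, against 0, 0 and 0 (processed signals, outlier spots kept, authors' table), 4 (no filter) and 2544 (arrays independent); leaving out 1 sample gave 0 (KO or KOWI replicate 2) to 209 (WT replicate 2). The shares of 5.39% and 0.432% of genes thus varied with the processing and with the sample left out. Leaving out a sample also changed which genes could be tested, so these counts do not trace the shares to single samples. Tissue calls were 0, against 895 (median centring) and 601 (arrays independent), KO over WT organoid calls 0, against 710 (arrays independent), and the difference 0, against 13 (median centring). Slide as a block was not run.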
